A study of Rattus norvegicus with 72 samples.

Results

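The oxidative phosphorylation genes described here are the nuclear genes whose symbols name a subunit of respiratory complexes I to IV or of ATP synthase (complex V), or an assembly factor carrying the Nduf prefix of complex I. They were chosen by symbol alone, as genes starting with Nduf, Uqcr, Atp5 or Cox followed by a subunit number from 4 to 8, together with Sdha, Sdhb, Sdhc and Sdhd. Of 14217 named genes on the array 86 met this rule, and 84 of them passed the filter on low signal that kept 12276 genes in all. Grouped by symbol, the 84 comprised 6 core subunits, 30 accessory subunits and 6 assembly factors of complex I and 4 subunits of complex II. A further 7 fell under complex III, 15 under complex IV and 16 under complex V. This grouping places the pseudogene Cox6c-ps1 with complex IV, the ATP synthase inhibitor Atp5if1 with complex V and Ndufa4 with complex I. Cox6b2 and Cox7b2, with means of 5.04 and 4.70 on the log2 scale, fell below the filter at 5.46, and Cox4i2 (5.90), Cox6a2 (6.12) and Cox8b (6.31) lay just above it. A further 6 genes of the pathway, Atp5mc1, Atp5mc2, Cox7a2, Ndufa10, Ndufs5 and Uqcrb, were annotated jointly with another symbol and were not included.

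The arrays measured RNA of lumbar dorsal root ganglia, which house the cell bodies of sensory neurons that send axons into the sciatic nerve. All samples came from Wistar rats of 8 to 12 weeks, and the lesioned groups had a crush of the sciatic nerve labelled proximal or distal, while the control group was labelled sham. Tissue was taken at 1, 3, 8, 12, 16, 18, 24 or 28 h, and the 72 arrays comprised 21 sham, 22 proximal and 29 distal samples. The series title names retrograde injury signalling to transcription in neurons as its subject, and the comparisons below ask how the respiratory chain genes stood in each lesion and how they moved with time.

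Oxidative phosphorylation transfers electrons from NADH and succinate through complexes I, II, III and IV to oxygen, and the proton gradient built up on the way drives ATP synthase. Neurons with long axons depend on it for transport and ion pumping, and mitochondria are carried between cell body and axon. Several complex IV subunits exist as a broadly expressed form and a form typical of heart and skeletal muscle, among them Cox6a1 and Cox6a2, and Cox8a and Cox8b. Cox4i2 and Ndufa4l2 are known as hypoxia-responsive relatives of Cox4i1 and Ndufa4, the latter a subunit now counted with complex IV although its symbol places it in complex I.

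Values are log2 intensities, and array medians ran from 6.88 to 7.08. Precision is set by how many arrays a group holds. Sham and proximal groups held 3 arrays at most hours (2 each at 12 h, and 1 sham and 2 proximal arrays at 16 h), and distal groups held 2 to 6. Of the distal arrays 23 carried the letters a to c and 6 a letter followed by o, whose meaning the labels do not give, so change within the distal lesion was computed from the arrays a to c. Dim probe sets divided the arrays into 4 technical sets. All distal arrays a to c lay in 1 set that held no sham or proximal array, so a level difference between distal and sham arrays cannot be told apart from the set. Sham and proximal arrays of an hour mostly shared their sets, and those at 1, 24 and 28 h all lay in 1 set. In 8 arrays the skeletal muscle gene Ckm stood at 9.20 or above, against at most 8.73 in the other 64. The defining markers of sensory neurons were present throughout, with a mean over the 19 measured markers of 11.50 to 12.12 in the early and late arrays of every lesion. Nothing in the labels ties each array to its own animal, and the p-values therefore measure the spread among these arrays, which may be technical. In this mixed tissue, fewer cells of a type and less RNA per cell cannot be told apart.

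The residual standard deviation of the 84 genes within groups had a median of 0.160 against 0.223 over all 12276 genes, and 69 of the 84 lay below the median of all genes. The members were also brighter, with a median mean level of 11.96 against 8.52, and the part of brightness in their spread was not tested. The members with the brightest probe sets were Atp5f1b and Atp5mc3 of ATP synthase and Cox6c, Cox4i1 and Cox8a of complex IV, with means from 13.13 to 13.36, and the dimmest were Cox4i2, Cox6a2, Cox8b, Ndufa4l2 (6.91) and Cox7a1 (6.96). Brightness of different probe sets does not order the genes by abundance. The largest residual standard deviations belonged to the muscle forms Cox6a2 (1.02) and Cox8b (0.897), and the next to the complex I assembly factors Ndufaf1 (0.329), Ndufaf4 (0.309) and Ndufaf8 (0.288).

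Proximal and sham ganglia were first compared in the early window of 1, 3 and 8 h. Uqcrc1, a core protein of complex III, was the member called here, with a difference of 0.25 (SE 0.055, 95% interval 0.14 to 0.36, adjusted p = 0.0343, a 1.19-fold higher level). Adjusted p-values throughout come from limma with Benjamini-Hochberg adjustment over all genes tested, and a gene was called at an adjusted p under 0.05. Of all genes 0.13% were called in this comparison, 0.114% higher and 0.0163% lower, so 1 higher call among 84 members stands beside 14 among 12276 genes. The 3 next smallest p-values on the higher side belonged to Atp5f1b, the catalytic beta subunit of ATP synthase (0.14, adjusted p = 0.189), Atp5f1d, its delta subunit (0.14, adjusted p = 0.232), and Cox4i1, the common form of complex IV subunit 4 (0.11, adjusted p = 0.241), and none passed the test. Ndufv1, the complex I subunit that binds NADH, differed by 0.26 with an adjusted p of 0.264. On the lower side the smallest p belonged to Ndufv2, a neighbouring core subunit (-0.13, adjusted p = 0.680). The median over the members was 0.05 against 0.04 over all genes, with 67 of 84 members above 0, and with arrays centred on their medians these became 0.00, -0.02 and 43.

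The Uqcrc1 difference was largest at 8 h. Sham arrays read 11.46, 11.69 and 11.58 there, proximal arrays 12.15, 11.96 and 12.01, and distal arrays a to c 11.75, 11.77 and 11.82. Every proximal array lay above every sham array, a separation seen upward in 19% of all genes at this hour and in 17 of the 84 members. The difference was 0.46 (SE 0.095, adjusted p = 0.00808, 1.38-fold), in a comparison that called 1.75% of all genes. At 1 h the groups overlapped, with sham arrays at 12.53, 12.19 and 12.15 and proximal arrays at 12.58, 12.33 and 12.27. At 3 h they overlapped as well, with sham arrays at 11.73, 11.55 and 11.87 and proximal arrays at 11.85, 11.99 and 11.90. No member was called by limma at the other 7 hours, where the smallest adjusted p was 0.182, and between 0 and 8 members per hour had an unadjusted p under 0.05. Of all genes 0% were called at 1 h and at 3 h, 0.0326% at 12 h, 0.0489% at 16 h, 1.51% at 18 h, 1.21% at 24 h and 4.47% at 28 h. With hour and letter together as a replicate block the calls over single hours rose from 1 to 20. The absence of calls thus depended on the design, and the share of all genes called with that block is not given here. Within technical sets the early Uqcrc1 difference was 0.33 in the set holding 3 and 8 h and 0.10 in the set holding 1 h. The early call was lost when any of 11 arrays was left out (proximal 1 h a, 3 h b and c, 8 h a and c; sham 1 h b and c, 3 h a and b, 8 h a and c), with values between 0.22 and 0.26 and an adjusted p of at most 0.143.

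In the late window of 18, 24 and 28 h no member differed between proximal and sham by this test, in a comparison that called 9.71% of all genes (5.35% higher, 4.36% lower). At an unadjusted p under 0.05 there were 4 of 84 members, against 20.2% of all genes. Weighting the arrays by quality gave 0 members higher and 21 lower in this window, so the absence of calls depended on that setting. The share of all genes called with these weights is not given here. The weights raised most other counts of members as well, such as that of sham late against early from 23 to 56. Differences ran from -0.18 to 0.14, with a median of -0.01 against -0.02 over all genes, and for 82 of the 84 members the 95% interval lay within 0.5 of 0. The 3 smallest p-values on the higher side belonged to Cox6c (0.11, adjusted p = 0.157) and Cox7b (0.14, adjusted p = 0.228), both of complex IV, and to the complex I accessory subunit Ndufb1 (0.11, adjusted p = 0.211). On the lower side they belonged to Uqcrc1 (-0.11, adjusted p = 0.255), Ndufs7, an iron-sulfur core subunit of complex I (-0.18, adjusted p = 0.347), and the assembly factor Ndufaf3 (-0.16, adjusted p = 0.355). Among the members fixed for naming, Cox4i1 differed by 0.03, Atp5f1b by -0.07 and the succinate dehydrogenase flavoprotein Sdha by -0.08. In the middle window of 12 and 16 h 0 members were called beside 0.114% of all genes, with 4 at an unadjusted p under 0.05. The smallest p was that of Atp5mk (-0.26, adjusted p = 0.220). With hour and letter together as a replicate block 10 were called, and the share of all genes called with that block is not given here. Intervals in the middle window were wider, within 0.5 of 0 for 68 of 84 members, since it held 3 sham and 4 proximal arrays.

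The proximal difference itself changed between the early and the late window for 2 members, both downward, in a comparison that called 8.67% of all genes (3.03% up, 5.64% down). For Uqcrc1 it fell by 0.36 (SE 0.077, adjusted p = 0.00132), and for Atp5f1b by 0.21 (SE 0.067, adjusted p = 0.0388). Over the 9 early arrays Atp5f1b ran from 12.87 over a median of 13.27 to 13.63 in sham and from 13.27 over 13.40 to 13.58 in proximal ganglia, so that the groups overlapped. Over the 9 late arrays it ran from 13.41 over 13.53 to 13.68 in sham and from 13.35 over 13.46 to 13.58 in proximal ganglia, again with overlap. Within sets the early Atp5f1b difference was 0.20 in the set holding 3 and 8 h and 0.01 in the set holding 1 h, and the 3 late values ran from -0.08 to -0.06. The Atp5f1b call was lost when any of 16 single arrays was left out, with values from -0.21 to -0.18 and an adjusted p of at most 0.0887, while that of Uqcrc1 was kept in each. Ndufv1 (-0.40, adjusted p = 0.0596), Atp5f1d (-0.20, adjusted p = 0.0758) and Ndufs7 (-0.39, adjusted p = 0.0776) had the next smallest p-values and did not pass.

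**Figure D1:**
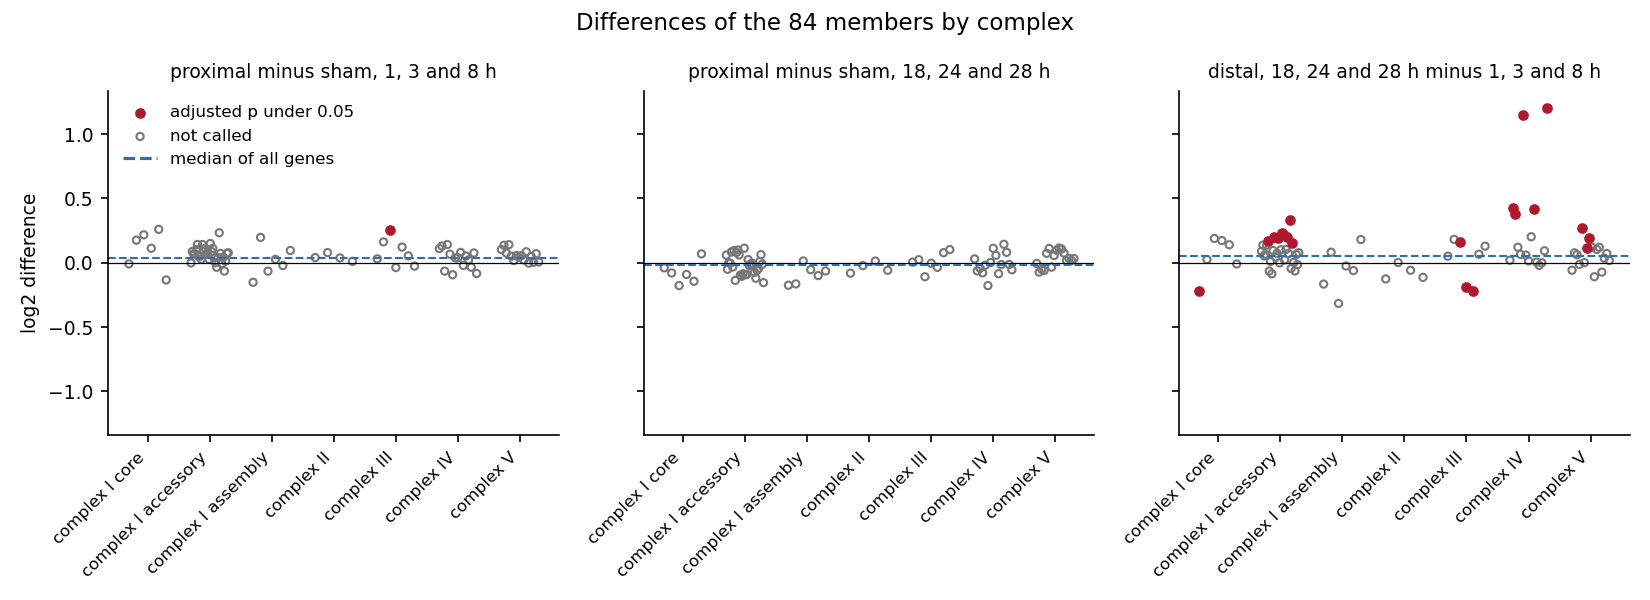
Log2 difference of each of the 84 members, grouped by complex, for proximal minus sham early, proximal minus sham late and distal late minus early, with called members in red and a dashed line at the median of all genes (0.04, -0.02 and 0.06). The early panel has 1 red point, the late proximal panel has 0, and the distal panel has 20, of which Cox8b (1.20) and Cox6a2 (1.15) lie highest.

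Within the distal lesion 20 members were called between the early and the late window, 17 higher and 3 lower, beside 27.5% of all genes (19.3% higher, 8.2% lower). The members' higher share, 20.2%, lay near that of all genes, and their lower share, 3.57%, lay below it. Their median change of 0.07 lay near the 0.06 of all genes. By role the higher calls were 5 of 15 subunits of complex IV, 8 of 30 accessory subunits of complex I, 3 of 16 of ATP synthase and 1 of 7 of complex III, and the lower calls were 2 of complex III and 1 of 6 core subunits of complex I. No assembly factor of complex I and no subunit of complex II was called. The split depended on the scale: with arrays centred on their medians it was 6 higher and 11 lower, with another quantile normalization 19 and 7, and the member median then stood at -0.02 and 0.06. Cox7a1, Cox4i2, Atp5f1e and Uqcrfs1 were, of the genes named here, those that kept their calls in every alternative that tested them, and a filter at the 50th percentile left out Cox7a1 and Cox4i2.

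Cox7a1, the heart and muscle form of complex IV subunit 7a, read 6.61, 6.51 and 6.86 in the distal arrays at 1 h and 6.58, 6.67 and 6.82 at 3 h. At 18 h it read 7.20, 7.16 and 7.21, at 24 h 6.95, 7.11 and 7.18, and at 28 h 7.32, 7.30 and 7.23. The late arrays lay above all early arrays apart from the 8 h array b at 7.23, which stood among the late values. The 3 distal 18 h arrays whose letter is followed by o read 6.88, 6.87 and 6.80, below the other 3 of that hour. The change was 0.42 (SE 0.079, adjusted p = 5.05e-05, 1.34-fold), and it was called against 1 h alone at 18 h (0.53), 24 h (0.42) and 28 h (0.62), where 4.8%, 11.3% and 10.5% of all genes were called. A filter at the 50th percentile, which left out Cox7a1, Cox6a2 and Cox8b, gave 0 calls at any hour against 1 h. At 18 h Cox6a2 and Cox8b were the other members called, and at 3, 8, 12 and 16 h 0 were, beside 0.00815%, 1.07%, 1.63% and 0.627% of all genes, with at most 3 at an unadjusted p under 0.05. In the 8 arrays highest in Ckm it read 6.75 to 7.21, against 6.51 to 7.46 in the other 64. At 18 h the arrays a to c had Ckm at 10.76, 10.86 and 10.80 and those with o at 6.07, 6.45 and 6.88. In the late window sham arrays ran from 6.60 over a median of 7.03 to 7.41 and proximal arrays from 6.59 over 6.97 to 7.27. The late distal arrays a to c read 6.95 to 7.32, but they lie in another technical set, so these levels cannot be compared between lesions.

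Cox4i2 ran from 5.36 over a median of 5.50 to 6.02 in the 9 early distal arrays and from 5.35 over 6.08 to 6.35 in the 9 late ones. The groups overlapped through the 18 h array b at 5.35. The change was 0.42 (SE 0.11, adjusted p = 0.00300). Cox4i1, its common counterpart, did not pass the test (0.02, adjusted p = 0.767), nor did Ndufa4l2 (0.01) or Ndufa4 (-0.06).

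Cox5a, a subunit of complex IV without a muscle form, ran from 8.05 over 8.20 to 8.48 early and from 8.21 over 8.60 to 9.01 late, with overlap. It rose by 0.38 (SE 0.10, adjusted p = 0.00346). Among ATP synthase genes the epsilon subunit Atp5f1e ran from 12.36 over 12.48 to 12.60 early and from 12.58 over 12.78 to 13.00 late. These groups overlapped at their edges, and the change was 0.27 (SE 0.065, adjusted p = 0.00115). Atp5mc3, a gene for the membrane ring subunit c, changed by 0.11 (adjusted p = 0.00332).

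Of the complex I accessory subunits Ndufb7 was called with 0.33 (SE 0.090, adjusted p = 0.00423). It ran from 11.40 over 11.58 to 11.71 early and from 11.83 over 11.90 to 12.10 late, so every late array lay above every early array, as in 3 members and in 5.62% of all genes. Ndufb11 changed by 0.23 (adjusted p = 0.00476), and 7 further members called higher, Ndufb2, Ndufab1, Ndufb9, Ndufb5, Ndufa3 and Ndufa7 of complex I and Atp5me of ATP synthase, changed by 0.15 to 0.22.

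Complex III moved in both directions. Uqcrc1 ran from 11.71 over 11.82 to 11.87 early and from 11.83 over 11.97 to 12.05 late and rose by 0.16 (SE 0.051, adjusted p = 0.0145). Uqcrfs1, the Rieske iron-sulfur protein, ran from 12.00 over 12.16 to 12.21 early and from 11.73 over 11.88 to 12.05 late and fell by 0.22 (SE 0.062, adjusted p = 0.00626). Uqcrc2, the other core protein, fell by 0.19 (adjusted p = 0.0467), and Ndufs1, the largest core subunit of complex I, fell by 0.22 (adjusted p = 0.0420). The Uqcrfs1 and Uqcrc1 groups overlapped. The calls of Uqcrc2 and Ndufs1 lay at the threshold and were lost when any of 22 and 14 single arrays was left out, with values from -0.19 to -0.17 and from -0.23 to -0.21. Ndufaf4, a complex I assembly factor, ran from 9.66 over 9.82 to 9.94 early and from 9.29 over 9.52 to 9.66 late. All late arrays lay below all early arrays, as in 2.02% of all genes, but the change of -0.32 did not pass (adjusted p = 0.0545).

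**Figure D2:**
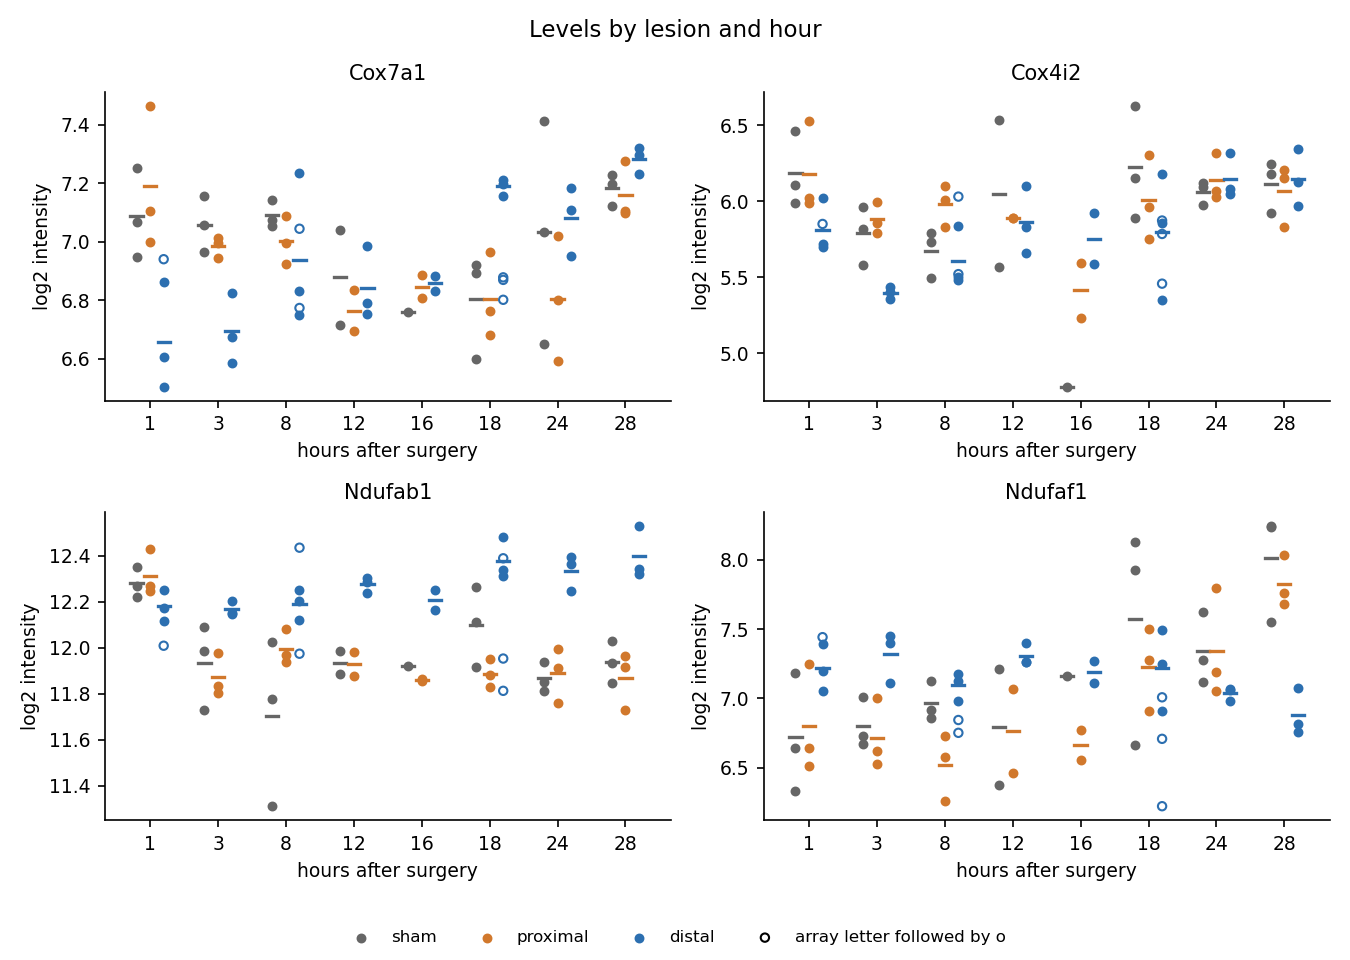
Log2 intensity of Cox7a1, Cox4i2, Ndufab1 and Ndufaf1 by lesion and hour, 1 point per array, with bars at the means of the filled points and arrays whose letter is followed by o drawn open. Distal Cox7a1 goes from 6.61, 6.51 and 6.86 at 1 h to 7.32, 7.30 and 7.23 at 28 h. Ndufab1 stays at 12.12 or above in distal arrays a to c. Sham and proximal arrays at 24 and 28 h lie between 11.73 and 12.03 in Ndufab1, below those at 1 h. Distal arrays a to c form a technical set of their own, so levels cannot be compared between them and the other lesions.

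Smaller steps of distal time gave fewer calls. Between the early and the middle window 0 members were called, beside 1.34% of all genes, and 0 had an unadjusted p under 0.05. Between the middle and the late window 5 were higher, Cox5a (0.44), Cox7a1 (0.33), Atp5mc3 (0.12), Uqcrc1 (0.19) and Ndufa3 (0.21), beside 9.88% of all genes. None of these 5 calls held in every alternative. The count fell to between 1 and 3 when any of the distal arrays 12 h a or b, 16 h b or c, 18 h b, 24 h a or c or 28 h a was left out, and to 0 without the arrays highest in Ckm, where Cox7a1 changed by 0.32 (adjusted p = 0.134). Median centring turned this split to 1 higher and 5 lower, and the other quantile normalization to 7 and 3. A test for any change over the 8 distal hours called 6 members, Cox8b, Cox6a2, Cox7a1, Atp5mc3, Cox4i2 and Cox5a, or 7.14% beside 17.3% of all genes.

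Cell type markers moved in the same distal arrays. Between the early and late windows the sensory neuron list had 1 gene higher and 5 lower of 19, with a median of -0.09, satellite glia markers had 4 of 7 higher, led by Gfap at 2.48, and macrophage markers had 6 higher and 2 lower of 12, beside 19.3% of all genes higher and 8.2% lower. The mean neuron marker level ran from 11.83 to 12.12 in early and from 11.78 to 11.95 in late distal arrays. Their part in the members' changes was not tested.

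The muscle forms Cox6a2 and Cox8b had the largest distal changes, 1.15 (SE 0.34, adjusted p = 0.00935) and 1.20 (SE 0.27, adjusted p = 0.000515). At 18 h Cox6a2 read 9.39, 9.88 and 9.67 and Cox8b 8.98, 10.54 and 9.91 in the distal arrays a to c, whereas at 24 h Cox6a2 read 5.70, 5.26 and 5.37 and Cox8b 5.79, 6.07 and 6.06. Both were high in these 3 arrays and low at the next hour. The 18 h arrays whose letter is followed by o were low as well, with Cox6a2 at 5.62, 5.38 and 5.91. The same 3 arrays had Ckm, muscle creatine kinase, at 10.76, 10.86 and 10.80. Over all 72 arrays the 8 highest in Ckm, which were the distal arrays 8 h c, 16 h b and 18 h a to c, the proximal arrays 3 h a and 12 h a and the sham array 18 h b, were also the 8 highest in Cox6a2, at 7.50 to 9.88 against 5.23 to 7.05 elsewhere. For Cox8b 7 of these 8 were shared, at 6.85 to 10.54 against 5.46 to 7.22.

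The muscle marker list as a whole had 12 of 18 tested genes higher in the distal late window, with a median of 1.28, and its mean level ran from 8.87 to 10.26 in those 8 arrays against 6.70 to 8.80 in the others. Acta1, skeletal actin, stood at 10.88 to 12.64 against 6.98 to 10.31. Without the 3 distal 18 h arrays the change of Cox6a2 was -0.11 (adjusted p = 0.889) and that of Cox8b 0.03 (adjusted p = 0.964), and without the 8 arrays highest in Ckm they were 0.33 (adjusted p = 0.172) and 0.35 (adjusted p = 0.0662). Cox7a1 without the 18 h arrays kept a change of 0.42 (adjusted p = 0.000383), and Cox4i2 one of 0.54 (adjusted p = 0.000456). Their common counterparts did not pass the test, with Cox6a1 at 0.07 (adjusted p = 0.350) and Cox8a at 0.09 (adjusted p = 0.102), and Cox8a shared none of its 8 highest arrays with Ckm.

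**Figure D3:**
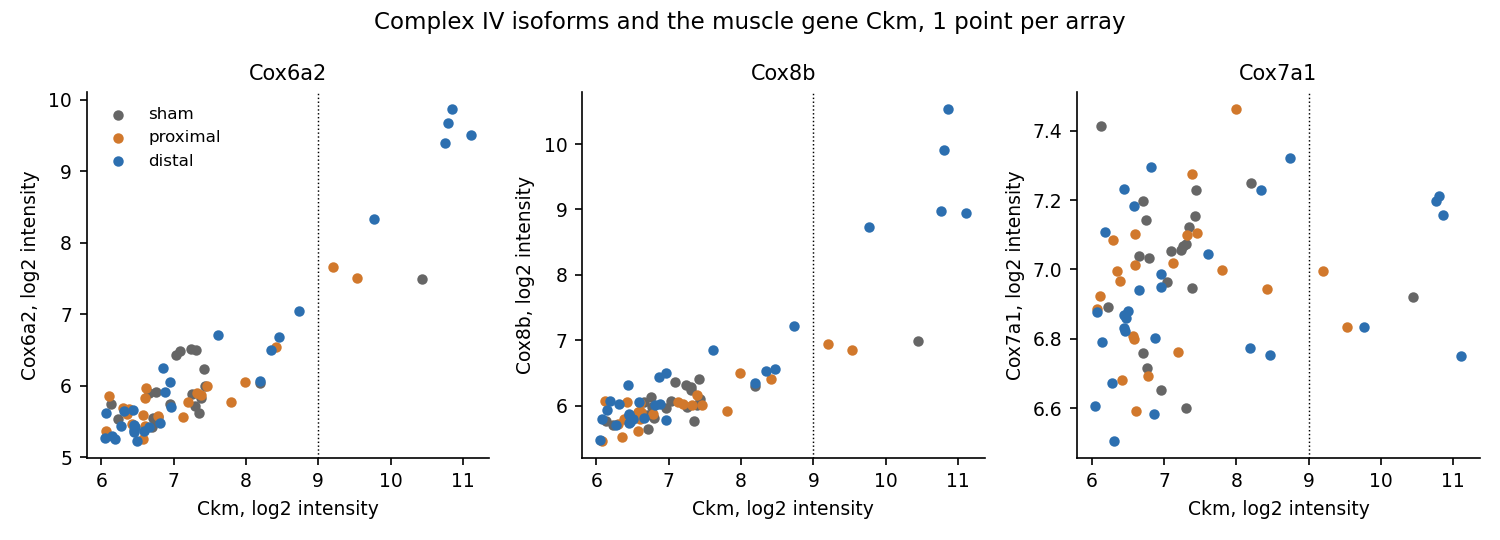
Log2 intensity of Cox6a2, Cox8b and Cox7a1 against that of the muscle gene Ckm, 1 point per array in the colour of its lesion, with a dotted line at Ckm of 9. The 8 arrays right of the line hold Cox6a2 between 7.50 and 9.88 and Cox8b between 6.85 and 10.54, while Cox7a1 lies between 6.75 and 7.21 there and between 6.51 and 7.46 elsewhere.

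The promoters of these isoforms are shown because Cox6a2 and Cox8b moved together with the muscle genes and Cox8a did not, and that of Uqcrc1 because it was the member called in the early comparison. RefSeq start sites (GRCr8) gave 250 upstream bases for 76 of the 84 members. Capitals mark matches on either strand to 5 motifs chosen after the sequences were seen: an E-box (CAGCTG), a MEF2-like motif (CTA and TAG with 4 bases between them), a TATA-like motif (TATAAA), an ETS-like motif (CCGGAAG, which reads CTTCCGG on the other strand) and an NRF1-like motif (GCGCANGCG, which reads CGCNTGCGC on the other strand). Where motifs overlap, the capitals run on. The upstream sequences lie at chr1:192219717-192219966 on the minus strand for Cox6a2, chr1:205408274-205408523 on the minus strand for Cox8b, chr1:213833624-213833873 on the minus strand for Cox8a and chr8:118467973-118468222 on the plus strand for Uqcrc1, each given 5′ to 3′ along the gene and ending at the base before its start.
Cox6a2: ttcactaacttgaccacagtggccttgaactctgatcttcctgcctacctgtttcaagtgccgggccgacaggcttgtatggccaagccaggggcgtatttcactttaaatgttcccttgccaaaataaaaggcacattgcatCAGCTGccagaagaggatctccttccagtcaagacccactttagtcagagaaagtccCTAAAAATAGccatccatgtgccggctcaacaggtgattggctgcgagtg
Cox8b: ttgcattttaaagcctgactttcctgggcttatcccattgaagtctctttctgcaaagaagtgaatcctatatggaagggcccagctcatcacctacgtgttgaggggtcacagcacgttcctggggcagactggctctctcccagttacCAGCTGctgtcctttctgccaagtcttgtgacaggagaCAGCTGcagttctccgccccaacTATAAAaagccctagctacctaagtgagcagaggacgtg
Cox8a: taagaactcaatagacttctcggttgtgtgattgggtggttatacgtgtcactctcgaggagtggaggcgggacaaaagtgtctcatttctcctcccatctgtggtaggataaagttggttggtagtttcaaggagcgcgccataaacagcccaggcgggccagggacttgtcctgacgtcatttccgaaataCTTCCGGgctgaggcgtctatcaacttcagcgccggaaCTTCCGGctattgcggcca
Uqcrc1: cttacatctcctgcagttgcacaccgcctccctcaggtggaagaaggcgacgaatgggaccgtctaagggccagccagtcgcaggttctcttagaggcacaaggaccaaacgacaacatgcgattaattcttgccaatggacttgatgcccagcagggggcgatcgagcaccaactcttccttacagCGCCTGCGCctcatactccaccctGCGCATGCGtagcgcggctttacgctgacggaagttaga
The Cox6a2 window holds an E-box 107 bases and a MEF2-like match 50 bases upstream of the start. The Cox8b window holds E-boxes 100 and 62 bases and a TATA-like match 39 bases upstream. The Cox8a window holds ETS-like matches 57 and 19 bases upstream, and that of Uqcrc1 NRF1-like matches 63 and 39 bases upstream. Among the 76 member promoters the ETS-like motif occurred in 27.6% and the NRF1-like motif in 21.1%, against 7.74% and 5.53% of all 27457 RefSeq promoters in the table. The E-box occurred in 10.5% against 11.9%, the TATA-like motif in 10.5% against 13.1% and the MEF2-like motif in 2.63% against 3.43%. A match is a description of these letters only.

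Since sham and proximal arrays at 1, 24 and 28 h shared a technical set, the change from 1 h to the mean of 24 and 28 h was compared within each lesion, a comparison chosen after seeing the data. In proximal ganglia 17 members were called, 2 higher and 15 lower, beside 24.5% of all genes (11.4% higher, 13.1% lower). The member median was -0.10 against -0.04, and 13 members had every later array below every 1 h array, as had 13.1% of all genes. The lower calls were 8 of 30 accessory and 2 of 6 core subunits of complex I, with 1 each among assembly factors, complexes II, III, IV and V, and both higher calls were complex I assembly factors. Over the same arrays 5 of 19 neuron markers were lower and 1 higher and 4 of 12 macrophage markers were higher, beside the same shares of all genes, and their part in the members' changes was not tested.

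Ndufab1, the mitochondrial acyl carrier protein, read 12.43, 12.25 and 12.27 in proximal arrays at 1 h and from 11.73 over a median of 11.91 to 12.00 in the 6 arrays at 24 and 28 h. The groups did not overlap, and the level fell by 0.43 (SE 0.087, adjusted p = 0.000233, 1.35-fold). In sham arrays it read 12.27, 12.35 and 12.22 at 1 h and from 11.81 over 11.89 to 12.03 later, also without overlap, and it fell by 0.38 (SE 0.087, adjusted p = 0.00933). In distal arrays it read 12.12, 12.17 and 12.25 at 1 h and from 12.25 over 12.35 to 12.53 later, a change of 0.19 that did not pass (adjusted p = 0.145). The sham call was lost without the sham 1 h array b (-0.34) or c (-0.41), at an adjusted p of at most 0.135.

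Ndufa9, an accessory subunit that binds NADPH, fell by 0.49 in proximal ganglia (SE 0.10, adjusted p = 0.000429), from 12.16, 11.72 and 11.82 at 1 h to between 11.14 and 11.55, with no overlap. Sdhb, the iron-sulfur subunit of complex II, fell by 0.31 (adjusted p = 0.00226), and Ndufa13 (GRIM-19), Ndufb11, Ndufb2, Ndufb7 and Uqcrc1 fell by 0.47, 0.35, 0.33, 0.41 and 0.27. Cox5a fell by 0.42 (adjusted p = 0.0353) and Ndufv1 by 0.39 (adjusted p = 0.0324). Many of these calls rested on the proximal 1 h array a, which read highest for Ndufab1, Ndufa9 and Uqcrc1. Without it 5 members were called, 3 higher and 2 lower, and Sdhb stood at -0.23 (adjusted p = 0.0717), Ndufa13 at -0.38 (adjusted p = 0.0716), Ndufb11 at -0.25, Ndufb2 at -0.18, Ndufb7 at -0.30, Uqcrc1 at -0.17, Cox5a at -0.34 and Ndufv1 at -0.25, none of them called. Without the proximal 24 h array a 11 members were called. Ndufab1 and Ndufa9 kept their calls in every alternative run.

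Ndufaf1, which helps to join the parts of complex I, moved the other way. It read 7.25, 6.64 and 6.51 in proximal arrays at 1 h and from 7.05 over 7.72 to 8.04 later, with overlap through array a, and rose by 0.79 (SE 0.22, adjusted p = 0.00630, 1.72-fold). In sham arrays it read 7.18, 6.64 and 6.33 at 1 h and from 7.12 over 7.59 to 8.25 later and rose by 0.96 (adjusted p = 0.00846). In distal arrays it read 7.39, 7.05 and 7.20 at 1 h and from 6.76 over 7.02 to 7.08 later. The sham and distal groups overlapped too. Leaving out array c at 1 h ended the proximal call (0.64, adjusted p = 0.0587) and the sham call (0.76, adjusted p = 0.208), and leaving out sham array b ended the sham call (0.92, adjusted p = 0.103). Ndufaf4 rose by 0.58 in proximal ganglia (SE 0.19, adjusted p = 0.0190), a call lost without the 1 h array a (0.35) or the 24 h array b (0.51).

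In sham ganglia Ndufaf1 and Ndufab1 were the 2 members called in this comparison, beside 2.66% of all genes, and 0 were called without the 1 h array b or without c. In distal ganglia 2 members were called, both higher, beside 16.4% of all genes. Cox7a1 rose by 0.52 (SE 0.12, adjusted p = 0.00125), with the later arrays between 6.95 and 7.32 all above those at 1 h. Atp5f1e rose by 0.28 (SE 0.098, adjusted p = 0.0415), from 12.36 to 12.60 at 1 h to 12.59 to 12.81 later, and its call was lost when any of 7 distal arrays (1 h a and b, 24 h b and c, 28 h a to c) was left out (0.22 to 0.28, adjusted p of at most 0.234). In distal ganglia 11 members had every later array above and 5 every later array below the 1 h arrays, against 22.8% and 11.3% of all genes. The distal split became 1 higher and 8 lower with median centring and 3 and 5 with the other quantile normalization, and the sham split 1 and 2, and 2 and 2. Fitted from the arrays compared alone, the counts were 24 in distal, 14 in proximal and 2 in sham ganglia. Whether more members were called in proximal or in distal ganglia therefore depended on the design.

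**Figure D4:**
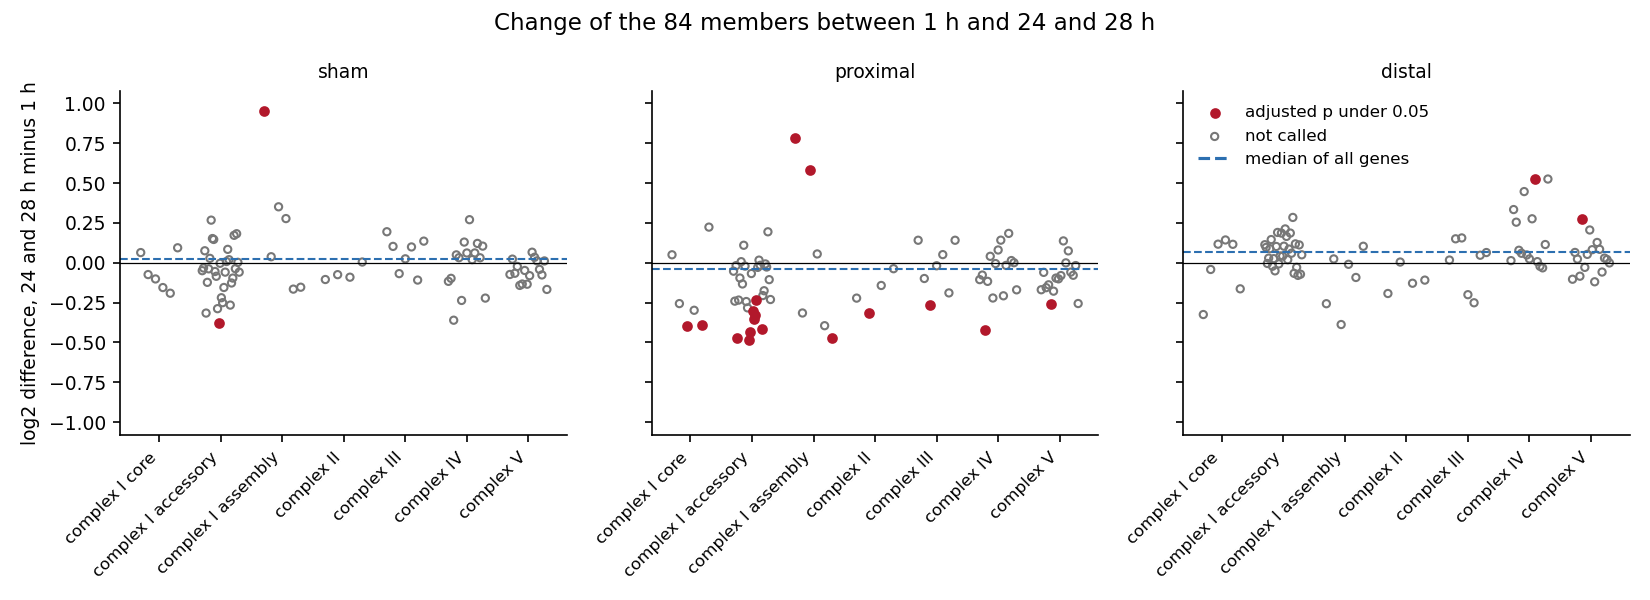
Log2 change of each of the 84 members from 1 h to the mean of 24 and 28 h in sham, proximal and distal ganglia, grouped by complex, with called members in red and a dashed line at the median of all genes (0.02, -0.04 and 0.07). The red points number 2 in sham, 17 in proximal and 2 in distal ganglia, and Ndufaf1 lies highest in sham (0.96) and in proximal ganglia (0.79).

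The distal change exceeded the proximal change for 10 members and fell short of it for 2, beside 11.1% of all genes. It was higher for Ndufab1 by 0.62 (SE 0.12, adjusted p = 0.00126), for Cox7a1 by 0.73 (adjusted p = 0.00441), for Ndufb11 by 0.57, for Uqcrc1 by 0.42, for Atp5f1e by 0.54, for Ndufb2 by 0.49, for Ndufb7 by 0.70, for Ndufa9 by 0.53, for Cox5a by 0.68 and for Sdhb by 0.32 (adjusted p = 0.0495). For Ndufa9 the next brightest probe set gave -0.13 (adjusted p = 0.728) in place of 0.53, and it changed by -0.87 in distal ganglia. The difference was lower for Ndufaf4 (-0.97, adjusted p = 0.0151) and Ndufaf1 (-1.04, adjusted p = 0.0225). Without the proximal 1 h array a 4 members were called, and Cox7a1 and Ndufab1 kept the call in every alternative that tested them. The split became 7 higher and 6 lower with median centring and 14 and 5 with the other quantile normalization. Against the sham change 3 members differed, beside 6.04% of all genes: Ndufab1 (0.57, adjusted p = 0.00233), Ndufb11 (0.46, adjusted p = 0.0265) and Ndufaf1 (-1.21, adjusted p = 0.0106). This split became 2 higher and 4 lower with median centring and 3 and 4 with the other quantile normalization. The call of Ndufaf1 was lost without the sham 1 h array c (-1.02, adjusted p = 0.0567), and that of Ndufb11 without any of 6 sham or distal arrays (0.39 to 0.47). Proximal and sham changes differed for 0 members, beside 1.66% of all genes, with 2 at an unadjusted p under 0.05. Each of these changes was taken within a set, which cancels a constant offset between sets but not a difference in scale. The interquartile range of the arrays ran from 3.51 to 3.73 in the distal set. In the set of the sham and proximal arrays at these hours it ran from 3.12 to 3.39. Lesion and set therefore cannot be told apart in the comparisons with distal changes.

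Over the full windows sham and proximal arrays crossed technical sets, and their changes over time are given for completeness. In sham ganglia 21 members were higher and 2 lower in the late than in the early window, beside 40.3% of all genes, with a median of 0.08 against 0.15. Median centring turned this into 4 higher and 33 lower, moving the median of all genes from 0.15 to -0.03, and the other quantile normalization gave 11 and 12. In proximal ganglia 5 were higher and 6 lower, beside 33.6% of all genes, and median centring gave 4 and 31 and the other quantile normalization 5 and 21. Ndufaf1 was higher in both, by 0.81 in sham and 0.79 in proximal ganglia, as was Uqcr11, a small subunit of complex III, by 0.48 and 0.34, and Ndufb9 was lower in both, by -0.19 and -0.24. Each of these 3 kept its call in every alternative run. Of 84 members 32 changed with time by the test over all sham hours, beside 53.6% of all genes, and 30 over all proximal hours, beside 50% of all genes.

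The late minus early change was higher in distal than in sham ganglia for 8 members and lower for 6, beside 27.9% of all genes, and median centring gave 21 and 4 and the other quantile normalization 20 and 7. Against the proximal change 16 were higher and 5 lower, beside 22.1%. The distal change of Uqcrfs1, a fall, lay below its change in sham (-0.50, adjusted p = 2.73e-05) and in proximal ganglia (-0.34, adjusted p = 0.00375). The distal changes of Cox5a and Cox7a1 lay above those of the other groups (0.59 and 0.49 against sham, 0.57 and 0.56 against proximal). The level itself differed between distal and sham in the late window for 48 members, 39 higher and 9 lower, beside 61.8% of all genes, or 20 and 21 with median centring. These levels cannot be told apart from the technical set.

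Different probe sets of a gene did not always agree in the distal lesion. The dimmer probe set of Ndufa9 changed by -0.59 between the windows (adjusted p = 8.28e-06) where the brighter changed by 0.07. That of Sdhd changed by -0.30 (adjusted p = 0.00328) against -0.11, and that of Uqcrc2 by -0.31 against -0.19. Cox6c-ps1 is annotated as a pseudogene of Cox6c, and their probe sets may share signal.

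Genes around the respiratory chain were counted by list, beside 19.3% of all genes higher and 8.2% lower in the late distal window. Of 37 tested assembly factors of complexes I to V outside the members, 4 were higher and 4 lower in the late distal window, with a median of 0.04. Cox11, which delivers copper to complex IV, fell by 0.93 (adjusted p = 1.39e-06). Lyrm7, a factor in the assembly of the Rieske protein into complex III, fell by 0.71 (adjusted p = 0.000178). Cox20, a chaperone of the complex IV subunit 2, rose by 0.65 and Cox19 by 0.27. Of 73 mitochondrial ribosomal proteins 13 were higher and 0 lower, led by Mrps6 at 0.46, with a median of 0.11 against 0.06 over all genes. In proximal ganglia from 1 h to 24 and 28 h, 16 of the 73 were lower and 0 higher, beside 13.1% and 11.4% of all genes. The median was -0.20 against -0.04, and in sham 0 were called. Without the proximal 1 h array a the member calls of this proximal comparison fell from 17 to 5. The count of ribosomal proteins without that array is not given here.

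Of 24 regulators of mitochondrial biogenesis 4 were higher and 2 lower in the late distal window, again beside 19.3% and 8.2% of all genes. Ppargc1a and Ppargc1b, coactivators of mitochondrial biogenesis, fell by 0.44 (adjusted p = 0.000530) and 0.51 (adjusted p = 0.0103), and Ppard and Gabpb1, a subunit of the ETS factor GABP, rose by 0.35 and 0.31. In proximal ganglia Ppargc1a did not pass the late comparison with sham (0.01, adjusted p = 0.990). Of 25 genes of the citric acid cycle and pyruvate dehydrogenase 4 were higher and 1 lower there, led by Pdp1, the phosphatase that activates pyruvate dehydrogenase, at 0.69 (adjusted p = 6.50e-08). Pdp1 was also the gene of that list called in the late proximal comparison with sham, at 0.92 (adjusted p = 8.44e-11). In that comparison, which called 5.35% of all genes higher and 4.36% lower, assembly factors had 2 of 37 lower, Cox10 (-0.28) and Ecsit (-0.28), mitochondrial ribosomal proteins had 0 of 73 called, and the electron carriers and adenine nucleotide transporters 0 of 23. Late proximal ganglia also had 5 of 12 macrophage markers and Gfap (2.13) higher and 3 of 19 neuron markers lower than sham, among them Rbfox3 at -0.65, and the part of these shifts in the values above was not tested.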

How the data were processed

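The authors deposited log2 expression values of 72 Affymetrix arrays made by RMA, per the submitters' processing notes, in a version that the sources used here leave unstated. It is not stated that the 72 arrays were normalized in a single run. The deposited values were used without further scaling. Of 31099 probe sets 57 controls were left out, and 20826 had a single annotated symbol, 436 several and 9780 none. A gene was represented by its brightest probe set over all arrays and kept where that mean reached the 25th percentile of the probe sets (5.46). Linear models with 24 group means were fitted to 12276 genes with limma 3.58.1 in R 4.3.3, with two-sided tests and Benjamini-Hochberg adjustment over all of them at 0.05. A fit to all 72 arrays had 48 residual degrees of freedom, and a fit to the 66 arrays with letters a to c had 42. The latter gave the changes within the distal lesion and their comparisons with changes in other groups. It also gave every change from 1 h to 24 and 28 h. Calls within the distal lesion used arrays a to c. Windows pooled 1, 3 and 8 h (early), 12 and 16 h (middle) and 18, 24 and 28 h (late). The procedure was tested on simulated data. Files were read with the R package data.table, version 1.17.8, and with pandas 2.3.3, and figures were drawn with matplotlib 3.10.9 in Python 3.11.15.

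The 4 technical sets came from clustering arrays on dim probe sets. No column of values was left unmapped. Samples of a shared letter deviated together in all 3 pairs at 1 h (correlations 0.478 to 0.696) and at 18 h (0.618 to 0.799). They also did so in both pairs at 12 h (0.760) but not at every hour, so letters were not taken to pair the samples. At 12 and 18 h sham and proximal arrays of a letter shared a technical set. The main fit did not use this match, so differences between sets entered the spread at those hours. Genes were named by rule: fixed catalytic subunits and isoform pairs, up to 8 called members of smallest p in each direction of a comparison (or, where under 3 were called, the 3 of smallest p), the 5 brightest, dimmest and most variable members, and the 4 of smallest p in each other list. Members, lists and comparisons were chosen with earlier results of these data known. Other normalizations, filters, probe sets, designs and left-out arrays were run as alternatives.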

Additional observations from a re-analysis of the deposited data

Results flagged for a closer look

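In groups of 4 to 10 arrays, 88 combinations of 8 named genes and groups were examined for an array far from the others, and 16 were found. The ratio given is the gap to the nearest array divided by the whole range. The limits are set for about 1 in 20 groups of independent normal values from 1 population. Windows pooled hours and, in sham and proximal ganglia, technical sets. The distal groups at 1 h and 18 h, which kept the arrays with o, mixed technical sets as well. The 16 of 88 therefore cannot be set against that rate. Cox6a2 had such an array in the distal early window (8 h c at 9.50, ratio 0.771), the proximal early window (3 h a at 7.66, 0.542), the proximal middle window (12 h a at 7.51, 0.857) and the sham late window (18 h b at 7.50, 0.727). Cox8b had one in the distal early window (8 h c at 8.95, 0.722), the distal middle window (16 h b at 8.74, 0.736) and the sham late window (18 h b, 0.585). All of these arrays were among the 8 with Ckm at 9.20 or above. Cox4i2 stood apart in the distal late window (18 h b at 5.35, 0.506), the proximal early window (1 h a at 6.53, 0.583) and the sham late window (18 h a at 6.63, 0.521). Cox7a1 stood apart in the distal early window (8 h b at 7.23, 0.511) and the proximal early window (1 h a at 7.46, 0.666). Uqcrc1 stood apart at 1 h in the distal lesion (do at 12.09, 0.846), in an array of another technical set than the distal arrays a to c. Cox5a stood apart in the distal middle window (16 h c at 8.30, 0.748), and Atp5f1b in the distal middle window (12 h b at 13.12, 0.715) and at 8 h in the distal lesion (eo at 13.46, 0.743).

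Effects that differed between groups by a test of the difference itself were the proximal minus sham difference of Uqcrc1 (-0.36) and Atp5f1b (-0.21), late minus early. For the change from 1 h to 24 and 28 h, the distal lesion differed from sham in Ndufab1 (0.57), Ndufaf1 (-1.21) and Ndufb11 (0.46). It differed from the proximal lesion in Ndufab1 (0.62), Cox7a1 (0.73), Ndufb11 (0.57), Uqcrc1 (0.42), Atp5f1e (0.54), Ndufb2 (0.49), Ndufb7 (0.70), Ndufa9 (0.53), Cox5a (0.68), Sdhb (0.32), Ndufaf4 (-0.97) and Ndufaf1 (-1.04). For the change between the early and late windows 14 members differed between distal and sham and 21 between distal and proximal.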

How the results depend on the processing

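Each count below is of members called, and the cause of a shift was not tested unless fewer arrays or genes entered by construction. The share of all genes called under each alternative is not given here, so a shift is not particular to the members. In the order early, late and late minus early, the proximal against sham counts (1, 0 and 2) became 0, 0 and 8 with another quantile normalization, 0, 0 and 5 with median centring, 11, 21 and 26 with array weights, 4, 0 and 10 with the technical set as a block, and 0, 0 and 1 without a variance trend. With all sham arrays pooled the early and late counts were 0 and 3, and 19 over single hours (1 in the main analysis), where array weights gave 46, the set block 6, the arrays compared alone 3 and the exchange of arrays with o 2. The early count was 0 from the arrays compared alone, and the exchange of arrays with o gave 5 for late minus early.

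Between distal windows, late against early (20) became 41 with array weights, 40 with the arrays compared alone and 11 with the exchange of arrays with o. Late against middle (5) became 10 with quantile normalization, 33 with array weights, 1 with the exchange, 9 with the set block, 25 with the arrays compared alone and 2 without the trend. Hours against 1 h (5) became 12, 15, 48, 12, 43 and 8 with quantile normalization, centring, array weights, the set block, the arrays compared alone and the next brightest probe set, and 0 with a filter at the 50th percentile, which left out the 3 genes called. Proximal late against early (11) became 26, 35 and 40 with quantile normalization, centring and array weights, and sham (23) became 37 with centring and 56 with array weights. The distal minus sham change (14) became 27, 25 and 48 with those 3 settings, and the distal minus proximal change (21) became 34 with quantile normalization, 39 with array weights and 13 with the exchange.

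From 1 h to 24 and 28 h, sham (2) became 4 with quantile normalization, 27 with array weights and 4 with the set block. Proximal (17) became 32 with array weights, 9 with the exchange and 26 with the set block. Distal (2) became 1 with the filter at the 50th percentile, which left out Cox7a1, and 8, 9, 22, 4, 7, 24, 4 and 1 with quantile normalization, centring, array weights, the exchange, the set block, the arrays compared alone, the next brightest probe set and no trend. The distal minus sham change (3) became 7, 6, 26, 11 and 11 with quantile normalization, centring, array weights, the set block and the arrays compared alone. The distal minus proximal change (12) became 19, 25, 23 and 19 with quantile normalization, array weights, the set block and the arrays compared alone. The proximal minus sham change (0) became 1 with quantile normalization and 3 with array weights. Tests over all hours in sham, proximal and distal ganglia (32, 30 and 6) became 59 and 47 in sham and proximal with centring, 78, 64 and 34 with array weights, 15 and 35 in sham and distal with the arrays compared alone, and 10 and 2 in distal with quantile normalization and with a filter at the 50th percentile.

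With the array letter as a replicate block the distal change from 1 h to 24 and 28 h had 4 calls, and no other count moved by over 1.5 times. Alternatives chosen after seeing the data gave the following. With hour and letter together as a replicate block the proximal against sham counts were 3 early, 10 in the middle window, 10 for late minus early and 20 over single hours. Without the arrays highest in Ckm the counts were 0 early, 1 for late minus early, 13 for distal late against early and 0 for distal late against middle. Without the distal 18 h arrays late minus early gave 5, and Cox6a2 turned to -0.11 in the distal lesion.

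Signs turned with median centring for sham late against early in Cox4i1 (-0.068), Cox7a2l (-0.066), Cox8a (-0.054), Ndufa4 (-0.17) and Atp5f1a (-0.17), and for distal against sham late in Cox4i1 (-0.087), Cox6a1 (-0.023) and Cox7b (-0.13). Cox6b1 turned to 0.16 with array weights in proximal ganglia from 1 h to 24 and 28 h, and the next brightest probe set of Ndufa9 gave -0.062 and -0.13 for the distal minus proximal change in the windows and from 1 h.

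On leaving out 1 array at a time, proximal against sham gave 0 to 1 calls early, 0 to 1 in the middle (1 without sham 12 h b), 0 to 1 late (1 without proximal 18 h c), 1 to 7 for late minus early and 0 to 8 over single hours. Distal late against early gave 17 to 22, middle against early 0 to 1 (1 without 16 h c), late against middle 1 to 7 and hours against 1 h 3 to 7. Late against early gave 6 to 16 in proximal (moved without 18 h a or b) and 16 to 32 in sham ganglia, 12 to 22 for distal minus sham (moved without sham 18 h c), 18 to 24 for distal minus proximal and 39 to 57 for distal against sham late. From 1 h to 24 and 28 h the ranges were 0 to 3 in sham, 5 to 22 in proximal, 1 to 4 in distal, 2 to 5 for distal minus sham, 4 to 15 for distal minus proximal and 0 to 0 for proximal minus sham. Tests over all hours gave 28 to 45 in sham, 18 to 42 in proximal (moved without 1 h a) and 3 to 7 in distal ganglia (moved without 24 h c or 3 h c). A set block could not be fitted for late against early within sham or proximal ganglia or for distal against sham. Probe sets near background, such as those of Cox4i2 and Cox6a2, limit what small differences can show.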
